A study of Mus musculus with 6 samples.

Results

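Collagen chain genes were taken as the mouse genes whose symbol consists of Col, a type number, the letter a and a chain number. Of the NCBI gene numbers with a symbol, 44 met this rule, and 41 of them were among the 17441 genes listed above 0 in any library. The other 3, *Col9a1*, *Col6a4* and *Col10a1*, were listed in no library and were taken as 0. By the form in which the chains assemble, 11 genes were fibrillar, 9 belonged to basement membranes, 9 were FACIT chains, 9 formed beaded filaments or hexagonal networks, 4 were transmembrane collagens, and *Col26a1* and *Col28a1* fell in none of these classes. The question was how these genes stood in infarcted heart tissue, and whether they differed between the genotypes after infarction.

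RNA was taken from the heart tissue below the ligature 3 days after surgery, from male mice aged 12 weeks by the labels, on a C57BL/6 background. WT Sham mice had the operation without ligation, WT MI mice had the left anterior descending coronary artery ligated, and *Card9* KO MI mice carried a *Card9* knockout and had the same ligation. WT mice were littermates or C57BL/6 mice, and which of these gave each library is not given in the sources used here. Each group had 2 libraries, and nothing in the labels says that these came from separate mice, so p-values measure only the spread between these samples, which may be technical. Sham-operated *Card9* KO mice are not analysed here, and genotype and infarction therefore cannot be told apart between *Card9* KO MI and WT Sham.

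Collagens are the main fibrous proteins of the extracellular matrix, and each molecule is a triple helix of chains that come from the same gene or from different genes. Fibrillar collagens of types I, III and V form the banded fibrils that carry tension in the heart wall, FACIT collagens sit on the surface of those fibrils, and type IV collagen forms the sheet under endothelial cells and around each cardiomyocyte. After an infarction, fibroblasts lay down fibrillar collagen in place of the lost muscle, and the resulting scar keeps the wall from rupturing.

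The spacing of low FPKM values gave an estimated depth of 3007067 to 4286477 fragments per library, and 3 fragments on a transcript of 5 kb were worth an FPKM between 0.14 and 0.1995. Pearson's r of log2(FPKM + 1) across genes was 0.9797 to 0.9809 between replicates of each group. Cardiomyocyte markers summed to an FPKM between 32223 and 69322 in every library, as the label heart implies. *Card9*, the gene targeted by the knockout, had FPKM values of 0.99 and 1.03 in WT Sham hearts, 3.39 and 5.08 in WT MI hearts and 9.85 and 6.94 in the MI libraries labelled *Card9* KO. It was not lower in the last group than in WT MI (log2 fold change 0.85 with a standard error of 0.23, adjusted p = 0.11 by limma). An FPKM over a whole gene does not show which exons were read. The FPKM of the targeted gene thus does not bear out the label, and it cannot decide whether the label is right. The group keeps the name of its label below, and every direction drawn from it depends on that name.

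FPKM values are per length and per library, so that chains can be compared with each other. The summed FPKM of all collagen chain genes was 537.3 and 485.6 in WT Sham hearts, 1804 and 2178 in WT MI hearts and 3618 and 3395 in the MI libraries labelled *Card9* KO. No group overlapped another. The sum was 3.89-fold higher in WT MI hearts than in WT Sham hearts by group means, and 1.76-fold higher in the MI libraries labelled *Card9* KO than in WT MI. Collagen transcripts made up between 0.101% and 0.11% of the summed FPKM of a WT Sham library, between 0.38% and 0.457% in WT MI hearts and between 0.723% and 0.766% in the MI libraries labelled *Card9* KO. With 2 libraries against 2, an exact permutation test cannot give a two-sided p below 0.333, and sums were therefore not tested.

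The make-up of the collagen transcripts shifted with infarction. Fibrillar chains held 29.0% and 29.9% of the collagen FPKM in WT Sham, 59.5% and 66.3% in WT MI hearts and 67.4% and 66.8% in the MI libraries labelled *Card9* KO. Basement membrane chains were the largest class in WT Sham, with 52.3% and 50.2%, and held 27.7% and 22.4% in WT MI hearts and 22.3% and 21.7% in the MI libraries labelled *Card9* KO. In absolute terms both classes were higher after infarction. Summed fibrillar FPKM went from 155.9 and 145.1 to 1074 and 1443, an 8.36-fold difference of the means, whereas basement membrane FPKM went from 281.2 and 243.8 to 500.1 and 486.9, or 1.88-fold. Between WT MI and the MI libraries labelled *Card9* KO the corresponding ratios of the means were 1.87 for fibrillar and 1.56 for basement membrane chains, and the shares of the classes in WT MI replicate 2 lay close to those of the last group.

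**Figure D1:**
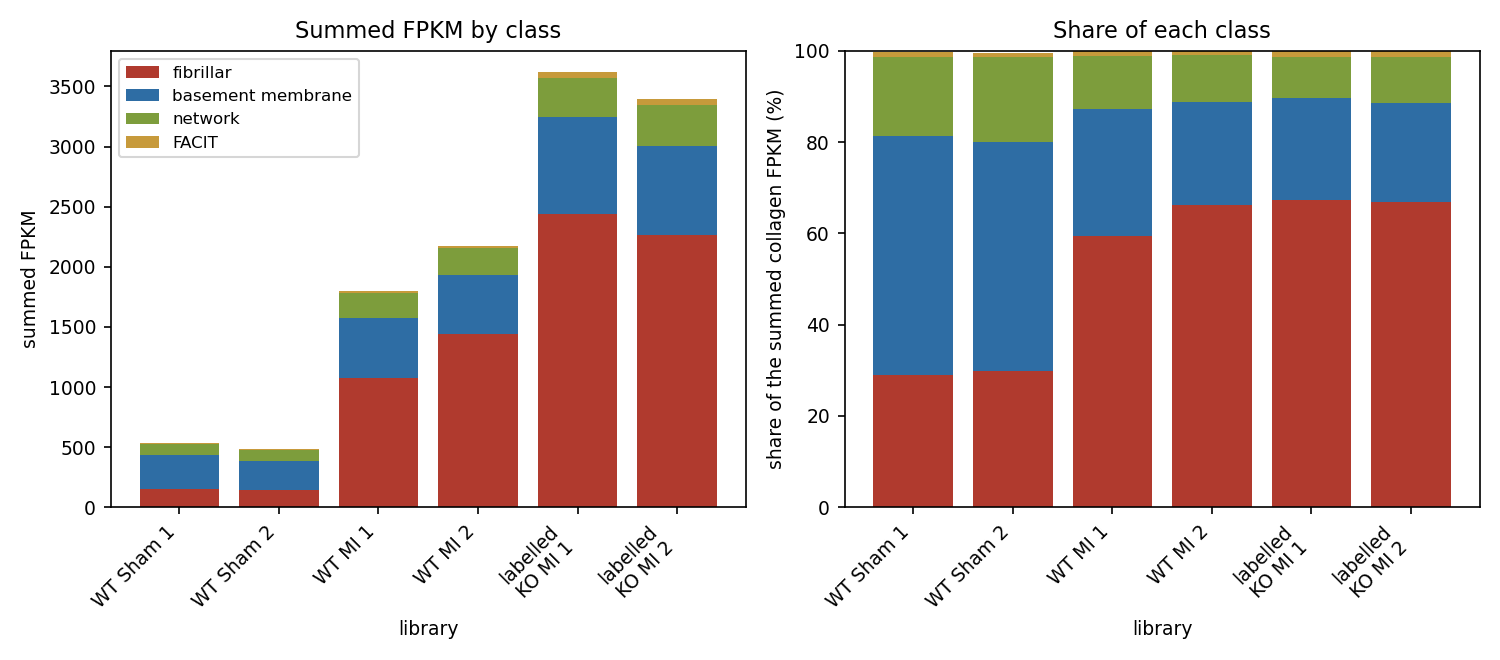
Summed FPKM of the collagen chain genes by class (left, bars from 0) and the share of each class in percent (right) in the 6 libraries; transmembrane and unclassed chains, under 0.5% in every library, are left out. The sums were 537.3 and 485.6 in WT Sham hearts, 1804 and 2178 in WT MI hearts and 3618 and 3395 in the MI libraries labelled *Card9* KO, and the fibrillar share was 29.0% and 29.9%, 59.5% and 66.3%, and 67.4% and 66.8%.

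For the tests, the 13120 genes that reached an FPKM of 1 in 2 or more libraries were kept, and 23 of the 44 collagen chain genes passed. Among them *Col11a1* and *Col8a2* reached 1 only in the MI libraries labelled *Card9* KO, *Col4a3* and *Col4a4* only in WT Sham and 1 of those libraries, and *Col12a1* only in the infarct groups. These 5 genes passed through the groups in which they were high, and counts over the 23 are given as a description. Log2 fold changes are on the scale of log2(FPKM + 1), which understates the change of low genes, and a call is an adjusted p below 0.05 by limma with Benjamini-Hochberg adjustment over all genes tested.

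Between WT MI and WT Sham, 19 of the 23 collagen chain genes were called higher, where 27.7% of all genes tested were, and *Col4a4* was called lower, where 9.39% were. *Col11a1*, *Col8a2* and *Col4a3* were not called. The median log2 fold change of the 23 genes was 1.33, against 0.19 over all genes. The scaling of the libraries moved the median of all genes to −0.03 with upper-quartile scaling and to −0.09 with quantile normalization, with medians of the collagen chain genes of 1.01 and 0.98. The share of higher calls among all calls fell with it, from 74.7% to 51.0% and 47.3%. The study's screen, recomputed from group means with a fold of at least 2 and a probability of at least 0.8, called 12 of the collagen chain genes higher, where 6.06% of all genes were. With either scaling 18 collagen chain genes were called higher, and *Col4a5* was the gene whose call was lost. Marker genes of other cell types moved as well. All 12 macrophage markers were called higher, with sums of 366 to 427 in WT Sham and 1443 to 1847 in WT MI. Of 12 cardiomyocyte markers 10 were called lower (67995 to 69322 against 38528 to 40165), and 11 of 14 fibroblast markers were called higher and *Gsn* lower (879 to 894 against 1023 to 1189). *Postn*, with 24.64 and 16.85 in WT Sham and 183.74 and 240.89 in WT MI, weighed heavily in the fibroblast sums. In bulk tissue, more cells of a type and more RNA per cell cannot be told apart, and the part of the cell make-up in the collagen values was not tested.

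Between the MI libraries labelled *Card9* KO and WT MI, 12 of the 23 genes were called higher and 0 lower by limma, where 0.816% of all genes tested were called higher and 0.587% lower. At an unadjusted p below 0.05, 20 of the 23 were higher, where 11.5% of all genes tested were, and none was lower, where 8.57% were. The median log2 fold change was 0.70, against 0.04 over all genes. In all 23 genes both MI libraries labelled *Card9* KO lay above both WT MI libraries, where 30.8% of all genes tested did so; 4 of the 23, *Col4a3*, *Col4a4*, *Col8a2* and *Col11a1*, reached an FPKM of 1 in neither WT MI library and could pass the filter only through another group. The calls depended on the libraries and settings. Without *Card9* KO MI replicate 1, *Card9* KO MI replicate 2 or WT MI replicate 1, 0 genes were called, without WT MI replicate 2 only *Col1a1* and *Col1a2* were, and without either WT Sham library 9 were. No gene was called without the filter on low values, 5 were called with a pseudocount of 0.1 and 17 with a pseudocount of 5. The screen called 4, *Col1a1*, *Col1a2*, *Col14a1* and *Col16a1*, where 0.728% of all genes were called higher. In every one of these fits each collagen chain gene tested under the filter had a log2 fold change above 0.

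**Figure D2:**
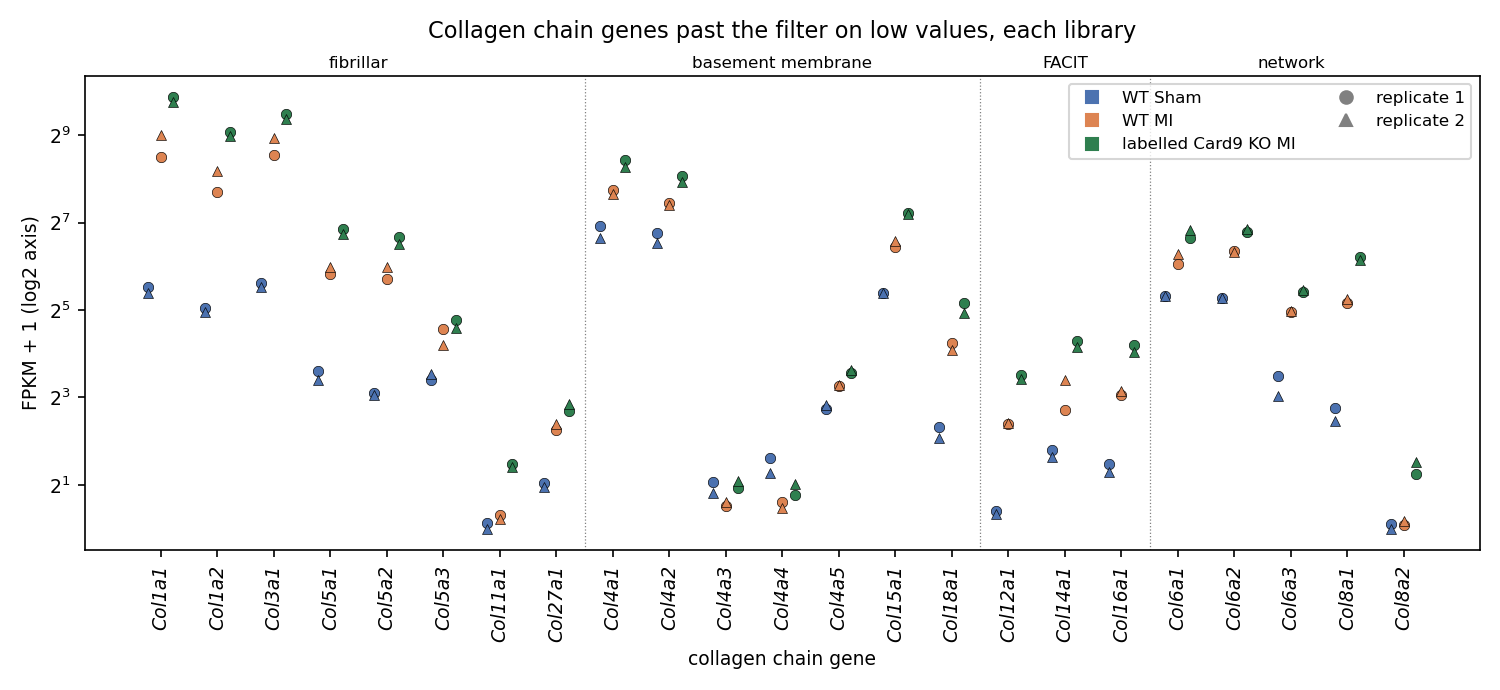
FPKM + 1 (log2 axis) of the 23 collagen chain genes that passed the filter on low values, by class, with 1 point per library. *Col1a1* ranged from 41.05 in WT Sham to 931.6 in an MI library labelled *Card9* KO, and for every gene shown both points of that group lie above both points of WT MI.

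Among the fibrillar genes, *Col1a1* (NCBI gene 12842; mm9 chromosome 11, 94797538 to 94814356, plus strand) encodes the chain that type I collagen contains most of. Its FPKM was 45.4 and 41.05 in WT Sham hearts, 359.07 and 515.63 in WT MI hearts and 931.6 and 870.28 in the MI libraries labelled *Card9* KO, or 43.2 ± 3.08, 437 ± 111 and 901 ± 43.4 (SD, n = 2). The 3 groups were apart, and the WT MI libraries differed most among themselves. The log2 fold change was 3.29 between WT MI and WT Sham (standard error 0.16, adjusted p = 2.3e-05) and 1.06 between the MI libraries labelled *Card9* KO and WT MI (standard error 0.16, adjusted p = 0.034). With each library left out in turn the latter ranged from 0.80 to 1.32, and over all settings its adjusted p ranged from 0.022 to 0.15. *Col1a2* (NCBI gene 12843; mm9 chromosome 6, 4454814 to 4491543, plus strand), the other chain of type I collagen, had FPKM values of 31.87 and 30.07 in WT Sham hearts, 205.28 and 290.3 in WT MI hearts and 537.84 and 506.39 in the MI libraries labelled *Card9* KO. It followed *Col1a1* in its order over the libraries, with log2 fold changes of 2.94 (standard error 0.15, adjusted p = 2.5e-05) and 1.09 (standard error 0.15, adjusted p = 0.027).

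*Col3a1*, whose product forms homotrimers in thin and compliant fibrils, was the highest collagen chain gene in WT Sham among the fibrillar ones. Its FPKM was 48.16 and 44.72 in WT Sham hearts, 375.38 and 489.38 in WT MI hearts and 716.05 and 662.09 in the MI libraries labelled *Card9* KO. The log2 fold change between WT MI and WT Sham was 3.18 (standard error 0.13, adjusted p = 1.2e-05). Between the MI libraries labelled *Card9* KO and WT MI it was 0.68 (standard error 0.13) and missed the threshold with an adjusted p of 0.057, although the libraries did not overlap. The ratio of *Col3a1* to *Col1a1*, which does not move with the scaling of a library, was 1.06 and 1.09 in WT Sham hearts, 1.05 and 0.949 in WT MI hearts and 0.769 and 0.761 in the MI libraries labelled *Card9* KO. Both libraries of the last group were thus below the other 4. The ratio of *Col1a1* to *Col1a2* was 1.42 and 1.37 in WT Sham hearts, lower than the 1.75 and 1.78 of WT MI and the 1.73 and 1.72 of the MI libraries labelled *Card9* KO, which were close to each other.

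To show the start region of a fibrillar gene, the promoter window of *Col1a2* is printed, since its partner *Col1a1* has no entry in the table used here. The window covers 250 bases before to 50 bases after the transcription start in RefSeq (table of GRCm38.p6), and it was found once and without a mismatch in mm9 at chr6:4455368-4455667, plus strand. Capitals mark the GC box GGGCGG and the CCAAT box CCAAT, searched on both strands; the other strand of the latter reads ATTGG.
Col1a2: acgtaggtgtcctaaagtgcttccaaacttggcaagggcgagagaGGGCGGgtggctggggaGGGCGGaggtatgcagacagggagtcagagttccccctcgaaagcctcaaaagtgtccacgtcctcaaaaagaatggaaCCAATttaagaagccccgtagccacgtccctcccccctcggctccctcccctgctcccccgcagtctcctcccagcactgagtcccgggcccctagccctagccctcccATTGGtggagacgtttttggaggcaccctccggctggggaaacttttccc
GC boxes began at positions −205 and −188 and CCAAT boxes at −109 and, on the other strand, at 1, the first transcribed base of the RefSeq model. The gene span given above, from the GENCODE annotation of mm9, begins at 4454814 and holds the whole window, so the annotations place the start differently. A GC box was held by 35.7% of all 32851 windows, a CCAAT box by 37.4% and the TATA box TATAAA by 13.6%. Of the 38 windows of the 35 collagen chain genes with an entry, 60.5%, 34.2% and 13.2% did. These matches describe letters and are no test of binding.

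*Col5a1* and *Col5a2* encode chains of type V collagen, which is built into type I fibrils and limits their diameter. *Col5a1* had FPKM values of 11.19 and 9.51 in WT Sham hearts, 55.74 and 62.63 in WT MI hearts and 115.22 and 105.8 in the MI libraries labelled *Card9* KO. *Col5a2* had 7.6 and 7.34, 51.28 and 62.61, and 101.22 and 90.34 in the same order. Both were called in both comparisons, with log2 fold changes of 2.41 and 2.77 between WT MI and WT Sham, and of 0.89 (adjusted p = 0.021) and 0.74 (adjusted p = 0.043) between the MI libraries labelled *Card9* KO and WT MI. The third type V chain, *Col5a3*, stood apart from its partners. In WT Sham its FPKM of 9.6 and 10.55 was about that of *Col5a1*, and after infarction it was 22.52 and 17.42 in WT MI hearts and 26.37 and 23.22 in the MI libraries labelled *Card9* KO. The ratio of *Col5a3* to *Col5a1*, chosen after the values were seen, was accordingly 0.858 and 1.11 in WT Sham hearts, 0.404 and 0.278 in WT MI hearts and 0.229 and 0.219 in the MI libraries labelled *Card9* KO, with no overlap between groups. *Col5a3* was called between WT MI and WT Sham (log2 fold change 0.91, adjusted p = 0.0028) and was not between the MI libraries labelled *Card9* KO and WT MI (0.31, adjusted p = 0.31).

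*Col27a1*, a fibrillar chain best known from cartilage, was low and had FPKM values of 1.06 and 0.94 in WT Sham hearts, 3.8 and 4.24 in WT MI hearts and 5.41 and 6.19 in the MI libraries labelled *Card9* KO. *Col11a1*, the chain that gives type XI collagen of cartilage fibrils, had 0.09 and 0 in WT Sham hearts, 0.23 and 0.17 in WT MI hearts and 1.8 and 1.67 in the MI libraries labelled *Card9* KO, or about 59.2 and 52.5 fragments in the latter against 7.1 and 5.1 in WT MI. Its log2 fold change between the last 2 groups was 1.19 (standard error 0.24, adjusted p = 0.059). Among cartilage markers, *Sox9*, a transcription factor of chondrocytes and of other cells, had FPKM values of 1.44 and 1.18 in WT Sham hearts, 2.72 and 2.98 in WT MI hearts and 7.44 and 7.29 in the MI libraries labelled *Card9* KO, and was called between the last groups (log2 fold change 1.12, adjusted p = 0.034). The 10 cartilage markers summed to 7.28 to 8.15, 5.49 to 8.15, and 12.6 to 13.8, and 3 of them passed the filter. Besides *Sox9* these were *Comp*, a cartilage matrix protein, with 0.13 and 0.81, 0.81 and 1.86, and 3.22 and 2.37, which was called higher against WT Sham but not against WT MI (0.73, adjusted p = 0.27), and *Cytl1*, with 5.3 and 5.53, 1.81 and 1.86, and 1.95 and 1.52. Of the 7 below the filter, *Acan* had 0.12 and 0.26 and *Matn3* 0.15 and 0.72 in the MI libraries labelled *Card9* KO, against at most 0.07 and 0 elsewhere, and *Cnmd*, *Matn1*, *Hapln1*, *Chad* and *Ucma* had at most 0.89 in any library. The part of cartilage markers in the values of *Col11a1* was not tested. *Col2a1*, the main cartilage collagen, had at most 0.39.

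**Figure D3:**
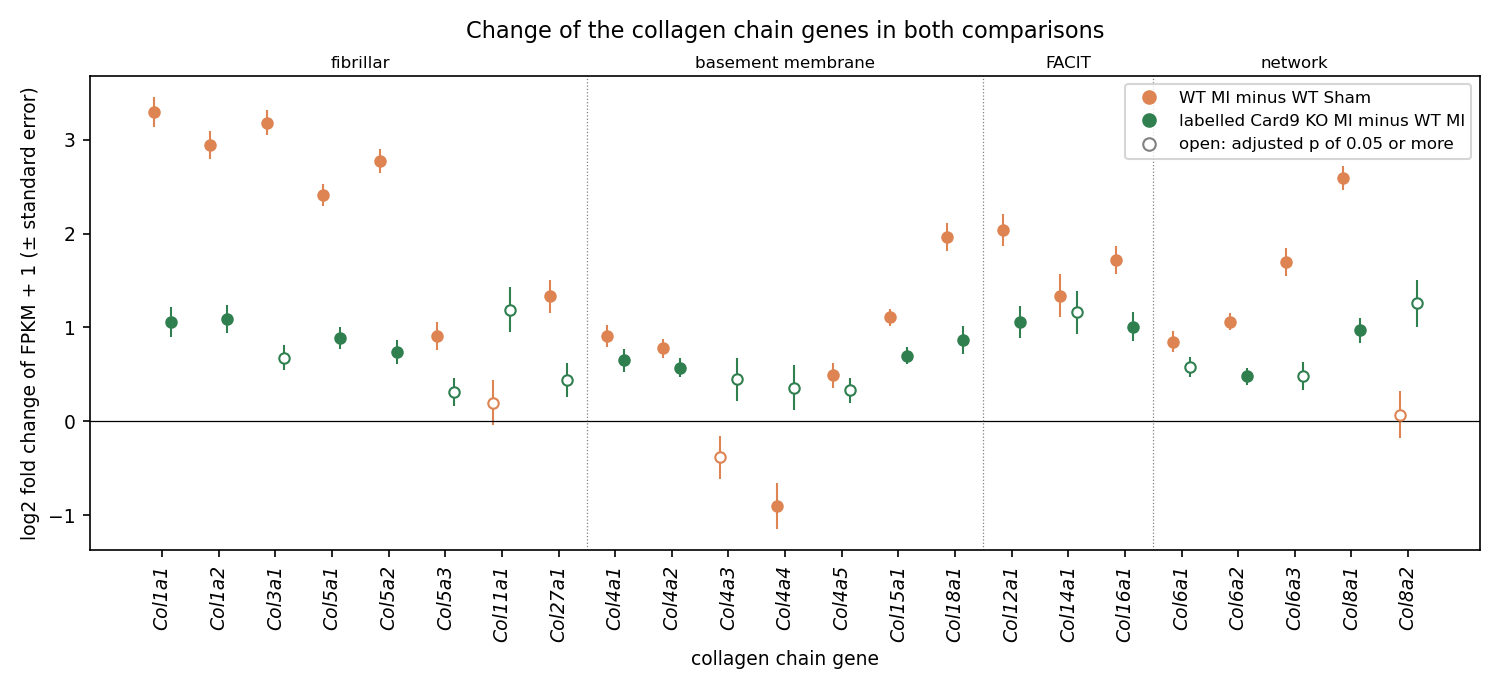
Log2 fold change of FPKM + 1 with its standard error for the 23 genes between WT MI and WT Sham and between the MI libraries labelled *Card9* KO and WT MI (n = 2 per group); filled points were called. *Col1a1* had 3.29 and 1.06, and *Col4a4*, the gene called lower, had −0.90 in the first comparison.

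Basement membrane collagens were led by *Col4a1* (NCBI gene 12826; mm9 chromosome 8, 11198423 to 11312826, minus strand) and *Col4a2* (NCBI gene 12827; mm9 chromosome 8, 11312805 to 11449287, plus strand), whose products assemble with each other in the type IV collagen of most tissues. In WT Sham they were the most abundant collagen transcripts of all. *Col4a1* had FPKM values of 120.06 and 99.27 in WT Sham hearts, 212.68 and 199.04 in WT MI hearts and 342.63 and 306.98 in the MI libraries labelled *Card9* KO. *Col4a2* had 106.85 and 91.93, 173.75 and 167.16, and 266.1 and 241.72. Both were called higher in WT MI hearts than in WT Sham hearts, with log2 fold changes of 0.91 (adjusted p = 8.9e-04) and 0.78 (adjusted p = 0.0011). Both were also called between the MI libraries labelled *Card9* KO and WT MI, with 0.65 (adjusted p = 0.047) and 0.57 (adjusted p = 0.049), close to the threshold. Their ratio stayed between 1.08 and 1.29 in all 6 libraries. The ratio of *Col1a1* to *Col4a1*, in contrast, was 0.378 and 0.414 in WT Sham hearts, 1.69 and 2.59 in WT MI hearts and 2.72 and 2.83 in the MI libraries labelled *Card9* KO; it was chosen after the values were seen. The 12 endothelial markers summed to 434 to 451 in WT Sham hearts, 470 to 471 in WT MI hearts and 524 to 542 in the MI libraries labelled *Card9* KO, with 0 of 12 called between the last 2 groups by limma (3 higher and 1 lower at an unadjusted p below 0.05), and *Col4a1* and *Col4a2* summed per endothelial marker FPKM stood at 0.503 and 0.441, 0.82 and 0.778, and 1.12 and 1.05. Over all genes tested, 11.5% were higher and 8.57% lower at that unadjusted p between the last 2 groups. The part of endothelial cells in the type IV values was not tested.

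The starts of *Col4a1* and *Col4a2* lie head to head. Their promoter windows in RefSeq were each found once in mm9, at chr8:11312777-11313076 on the minus strand for *Col4a1* and at chr8:11312555-11312854 on the plus strand for *Col4a2*. They are printed because the windows overlap by 78 bases, shown in capitals, which the genes read from opposite strands.
Col4a1: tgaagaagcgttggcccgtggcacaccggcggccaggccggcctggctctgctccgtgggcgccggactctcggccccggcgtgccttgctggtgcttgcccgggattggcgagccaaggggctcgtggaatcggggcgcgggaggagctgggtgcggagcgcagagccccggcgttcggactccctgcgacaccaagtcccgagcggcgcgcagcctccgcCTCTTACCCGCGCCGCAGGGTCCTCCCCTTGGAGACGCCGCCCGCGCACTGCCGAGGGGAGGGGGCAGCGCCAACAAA
Col4a2: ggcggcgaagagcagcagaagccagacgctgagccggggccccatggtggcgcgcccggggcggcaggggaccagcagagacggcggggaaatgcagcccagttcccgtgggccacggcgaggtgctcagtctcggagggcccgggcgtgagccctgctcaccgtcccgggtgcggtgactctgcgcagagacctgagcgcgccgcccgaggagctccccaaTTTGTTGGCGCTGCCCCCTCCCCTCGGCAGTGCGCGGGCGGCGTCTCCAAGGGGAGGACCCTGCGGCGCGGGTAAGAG
The annotated genes overlap in mm9 from 11312805 to 11312826. Whether the authors counted by strand is not given in the sources used here, so that fragments in that stretch could belong to either gene.

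Of the other type IV chains, those of *Col4a3*, *Col4a4* and *Col4a5* form a network found in kidney, lung and inner ear. For *Col4a3* and *Col4a4* both WT MI libraries lay below both WT Sham libraries. *Col4a4* had FPKM values of 2.08 and 1.42 in WT Sham hearts, 0.53 and 0.39 in WT MI hearts and 0.71 and 1.04 in the MI libraries labelled *Card9* KO, and it was called lower in WT MI hearts than in WT Sham hearts (log2 fold change −0.90 with a standard error of 0.24, adjusted p = 0.022). The call was lost without WT Sham replicate 1, WT MI replicate 1 or WT MI replicate 2, with adjusted p-values of 0.12, 0.065 and 0.09. *Col4a3*, its neighbour on chromosome 1, had 1.09 and 0.76, 0.42 and 0.52, and 0.91 and 1.11. Its log2 fold change of −0.38 without further scaling was not called (adjusted p = 0.24). Of all settings only quantile normalization, with its own estimate, gave a call (adjusted p = 0.029). *Col4a5*, in contrast, had 5.67 and 6.11 in WT Sham hearts, 8.6 and 8.69 in WT MI hearts and 10.77 and 11.44 in the MI libraries labelled *Card9* KO. Its call between WT MI and WT Sham (log2 fold change 0.49, adjusted p = 0.023) was lost under 3 scalings and whichever of the 4 libraries compared was left out.

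The multiplexins *Col15a1* and *Col18a1* encode proteoglycan-like collagens of basement membranes, and that of *Col18a1* releases endostatin. *Col15a1* had FPKM values of 41.09 and 41.03 in WT Sham hearts, 85.63 and 94.61 in WT MI hearts and 148.37 and 144.96 in the MI libraries labelled *Card9* KO. It was among the genes with the smallest spread between replicates, and was called in both comparisons, with log2 fold changes of 1.11 (adjusted p = 1.4e-04) and 0.70 (standard error 0.09, adjusted p = 0.021). *Col18a1* had 4.03 and 3.23, 17.98 and 16.05, and 34.64 and 29.38, with log2 fold changes of 1.96 (adjusted p = 1.0e-04) and 0.87 (adjusted p = 0.044).

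Of the 9 FACIT genes 3 passed the filter. *Col12a1*, whose product bridges neighbouring fibrils, had FPKM values of 0.32 and 0.25 in WT Sham hearts, 4.26 and 4.3 in WT MI hearts and 10.33 and 9.63 in the MI libraries labelled *Card9* KO. By group means of FPKM it was 15.0-fold higher in WT MI hearts than in WT Sham hearts, the largest ratio among the collagen chain genes called, from about 11.7 and 8.7 fragments in WT Sham. Its log2 fold changes were 2.04 (adjusted p = 1.4e-04) and, against WT MI, 1.06 (adjusted p = 0.037). *Col16a1* had 1.8 and 1.44, 7.35 and 7.85, and 17.38 and 15.4, with log2 fold changes of 1.72 (adjusted p = 1.9e-04) and 1.01 (adjusted p = 0.034). *Col14a1*, which regulates fibril growth, had 2.46 and 2.12 in WT Sham hearts, 5.52 and 9.6 in WT MI hearts and 18.42 and 16.83 in the MI libraries labelled *Card9* KO. Its WT MI libraries were apart from each other, and the log2 fold change against WT MI of 1.16 (standard error 0.23) was not called (adjusted p = 0.059). Relative to *Col1a1*, *Col14a1* stood at 0.0542 and 0.0516 in WT Sham and between 0.0154 and 0.0198 in the 4 infarct libraries, a ratio chosen after the values were seen.

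Type VI collagen forms beaded filaments around cells from 3 chains of similar abundance in the assembled molecule. *Col6a1* had FPKM values of 38.65 and 38.76 in WT Sham hearts, 65.06 and 76.13 in WT MI hearts and 99.62 and 112.44 in the MI libraries labelled *Card9* KO. *Col6a2* had 37.94 and 37.9, 80.44 and 79.75, and 109.5 and 114.33, and *Col6a3* had 10.16 and 7.21, 29.87 and 30.27, and 41.72 and 43.2. All 3 were called higher in WT MI hearts than in WT Sham hearts, with log2 fold changes of 0.85, 1.06 and 1.70. Between the MI libraries labelled *Card9* KO and WT MI, *Col6a2* was called (0.48, adjusted p = 0.049), whereas *Col6a1* (0.58, adjusted p = 0.057) and *Col6a3* (0.48, adjusted p = 0.14) were not, and the differences between these changes were not tested. The ratio of *Col6a3* to *Col6a1* was 0.263 and 0.186 in WT Sham and between 0.384 and 0.459 in the infarct libraries, whereas *Col6a1* to *Col6a2* stayed between 0.809 and 1.02.

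*Col8a1*, the gene of a short chain of the hexagonal networks made by vascular and mesenchymal cells, lies in mm9 on chromosome 16 at 57624371 to 57754850, minus strand (NCBI gene 12837). Its FPKM was 5.78 and 4.54 in WT Sham hearts, 34.65 and 37.23 in WT MI hearts and 72.88 and 70.07 in the MI libraries labelled *Card9* KO. Replicates lay close together, and the log2 fold changes were 2.59 (standard error 0.13, adjusted p = 2.3e-05) and 0.97 (standard error 0.13, adjusted p = 0.021). The promoter window of *Col8a1* is printed for comparison with that of *Col1a2*, since the changes of this network chain lay within the range of the fibrillar ones. It lies in mm9 at chr16:57754801-57755100, minus strand, and capitals mark the GC box on the other strand, CCGCCC.
Col8a1: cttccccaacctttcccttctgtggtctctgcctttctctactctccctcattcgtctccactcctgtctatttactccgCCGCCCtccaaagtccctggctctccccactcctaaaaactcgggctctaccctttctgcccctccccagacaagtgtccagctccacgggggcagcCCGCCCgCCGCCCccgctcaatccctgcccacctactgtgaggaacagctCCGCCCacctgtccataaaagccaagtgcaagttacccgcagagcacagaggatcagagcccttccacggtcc
The boxes began at −170, −73, −66 and −23, and no CCAAT box was in the window. The partner chain *Col8a2* had FPKM values of 0.07 and 0 in WT Sham hearts, 0.06 and 0.12 in WT MI hearts and 1.38 and 1.88 in the MI libraries labelled *Card9* KO, which is about 25.6 and 33.4 fragments in the latter and at most 2.0 in every other library. No fold is given, since the other groups lay at the detection limit, and its log2 fold change of 1.26 against WT MI was not called (adjusted p = 0.059). Between WT MI and WT Sham the log2 fold changes of *Col8a2* and *Col11a1*, 0.07 and 0.20, were not called and turned to −0.23 and −0.18 under quantile normalization.

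**Figure D4:**
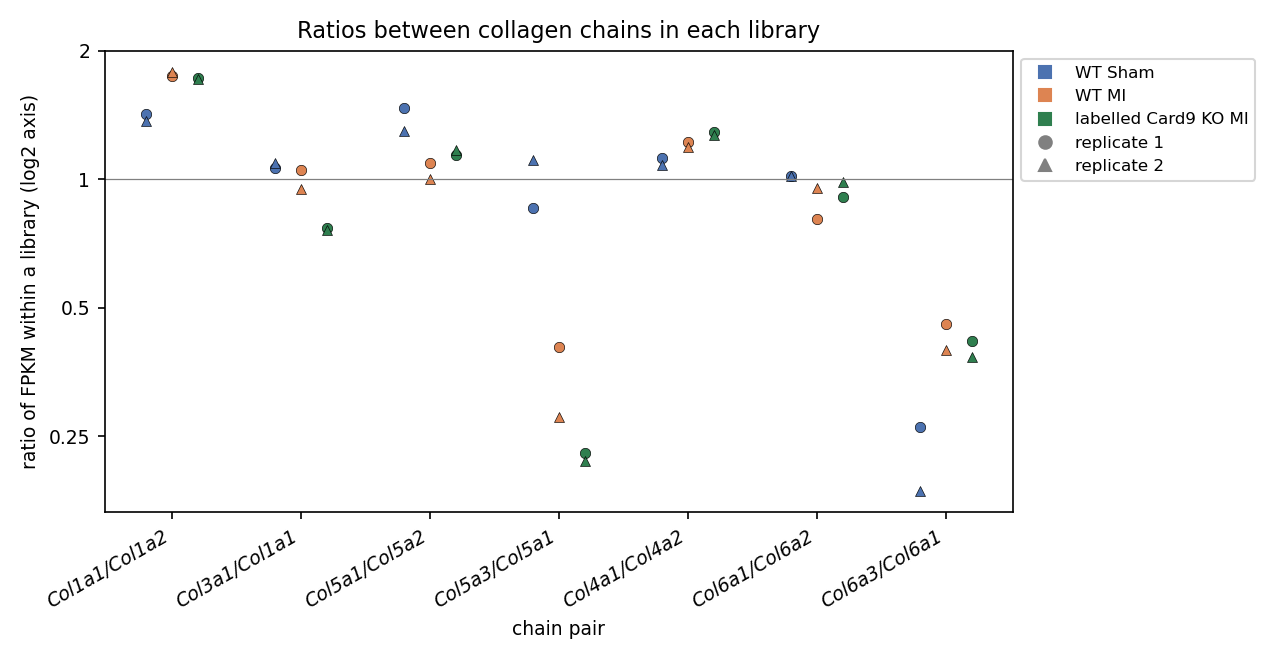
Ratio of FPKM between chains within each library (log2 axis), 1 point per library. *Col4a1*/*Col4a2* and *Col6a1*/*Col6a2* stayed between 0.809 and 1.29, whereas *Col5a3*/*Col5a1* went from 0.858 and 1.11 in WT Sham to 0.229 and 0.219 in the MI libraries labelled *Card9* KO.

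The 21 genes below the filter had FPKM values of at most 1.28 in any library. Such values rest on few fragments and were not tested. *Col9a2*, a FACIT chain of cartilage, had 0 and 0.24 in WT Sham hearts, 0.27 and 0 in WT MI hearts and 0.93 and 1.05 in the MI libraries labelled *Card9* KO, or at most 3.2 fragments in the first 4 libraries against 11.7 and 12.6. *Col7a1*, the chain of the anchoring fibrils of skin, had 0.07 and 0, 0.11 and 0.22, and 0.55 and 0.36. Highest in WT Sham, *Col11a2* had 0.84 and 0.76 in WT Sham hearts, 0.22 and 0.18 in WT MI hearts and 0.41 and 0.64 in the MI libraries labelled *Card9* KO. *Col6a6*, a further type VI chain, had 0.92 and 1.28, 0.38 and 0.64, and 0.52 and 0.81. *Col4a6* had 0.23 and 0.05, 0.44 and 0.19, and 0.48 and 0.4. The 4 transmembrane collagens, which are shed from cell surfaces, summed to between 0.81 and 1.35 in every library.

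**Figure D5:**
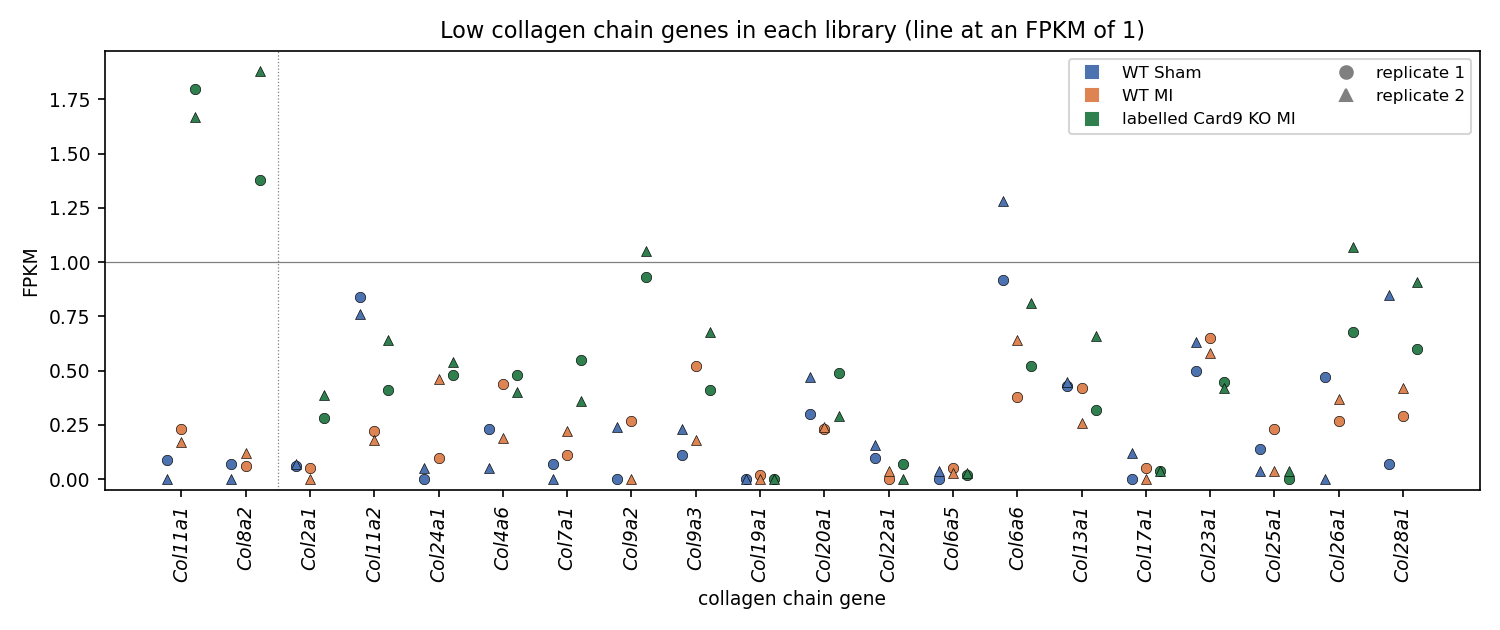
FPKM of *Col11a1* and *Col8a2* (left of the dotted line) and of the 18 genes listed in any library but below the filter, 1 point per library. *Col8a2* had 1.38 and 1.88 in the MI libraries labelled *Card9* KO and at most 0.12 elsewhere, and no gene right of the line exceeded 1.28.

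Between the MI libraries labelled *Card9* KO and WT Sham, 21 of the 23 genes were called higher, where 34.8% of all genes tested were, and 0 lower, where 14.3% were. *Col4a3* and *Col4a4* were not called (log2 fold changes 0.07 and −0.55, adjusted p = 0.84 and 0.097). At an unadjusted p below 0.05 21 were likewise higher, where 39.4% of all genes tested were, and none was lower, where 16.7% were. This comparison shares its libraries with both others. The largest log2 fold changes were those of *Col1a1* (4.35), *Col1a2* (4.03) and *Col3a1* (3.86).

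Collagen made in a cell is hydroxylated, folded, trimmed and crosslinked, and genes of these steps were followed with lists. Counts of each list stand beside the shares over all genes tested. Between WT MI and WT Sham 27.7% of these were called higher and 9.39% lower. Between the MI libraries labelled *Card9* KO and WT MI the shares were 0.816% and 0.587%. Of 21 genes of hydroxylation and folding, 15 were called higher and none lower in WT MI hearts than in WT Sham hearts, among them *P4ha3*, a prolyl hydroxylase subunit (log2 fold change 2.34), *Fkbp10* (1.77) and *Sparc* (1.75), chaperones of collagen inside and outside the cell. *Fkbp10* (0.71, adjusted p = 0.038) and *Sparc* (0.75, adjusted p = 0.037) were the 2 of 21 called higher between the MI libraries labelled *Card9* KO and WT MI. The largest change of the list there was that of *P4ha3*, which was not called (1.48, adjusted p = 0.052 by limma). Its FPKM was 3.29 and 6.85 in WT MI hearts and 14.86 and 15.41 in the MI libraries labelled *Card9* KO. All 5 lysyl oxidase genes, whose enzymes start the crosslinks, were called higher after infarction. *Lox* had FPKM values of 1.83 and 2.09 in WT Sham hearts, 59.98 and 58.74 in WT MI hearts and 79.63 and 68.23 in the MI libraries labelled *Card9* KO, with a log2 fold change of 4.35 in the first comparison and of 0.31 (adjusted p = 0.21) in the second. *Loxl2* was the gene of the 5 called in the second (0.66, adjusted p = 0.048). In the second comparison 10 of the 21 hydroxylation and folding genes were higher and 2 lower at an unadjusted p below 0.05 by limma. Of the 5 lysyl oxidase genes 4 were higher at that threshold. Over all genes tested, 11.5% were higher and 8.57% lower.

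Of the 10 propeptide processing genes 6 were tested, and 4 were called higher in WT MI hearts than in WT Sham hearts, led by *Bmp1*, the procollagen C-proteinase (1.57), and *Adamts2*, an N-proteinase (1.44). Of 14 collagen receptor genes 10 were tested and 6 were called higher, led by *Lair1*, an inhibitory receptor of leukocytes (1.63). By limma 0 genes of either list were called between the MI libraries labelled *Card9* KO and WT MI in either direction, whereas 4 and 2 were higher at an unadjusted p below 0.05. Over all genes tested, 11.5% were higher at that threshold. Of 12 genes of collagen breakdown 9 were tested, with 5 called higher and *Mmp15* lower in WT MI hearts than in WT Sham hearts. Between the MI libraries labelled *Card9* KO and WT MI, *Mmp9*, a gelatinase, was called lower, from 24.91 and 10.15 in WT MI to 3.26 and 2.94 (log2 fold change −2.05, adjusted p = 0.045). *Mmp14*, a membrane-bound collagenase, had 49.13 and 63.26 against 113.18 and 92.56 and was not called (0.86, adjusted p = 0.052). Of the 9 breakdown genes tested, 2 were higher and 1 lower in this comparison at an unadjusted p below 0.05 by limma. The median log2 fold change between WT MI and WT Sham was 0.96 for hydroxylation and folding, 0.99 for propeptide processing, 2.27 for lysyl oxidases, 0.70 for receptors and 1.03 for breakdown, beside the 0.19 of all genes, and in the second comparison 0.36, 0.32, 0.33, 0.19 and 0.11, beside 0.04. Calls of these lists between the MI libraries labelled *Card9* KO and WT MI were few and went to 0 under several settings.

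Cell type markers were set beside the difference between the MI libraries labelled *Card9* KO and WT MI. Over all genes tested, 0.816% were called higher and 0.587% lower by limma. At an unadjusted p below 0.05 the shares were 11.5% and 8.57%. The 14 fibroblast markers summed to 1023 to 1189 in WT MI hearts and 1550 to 1579 in the MI libraries labelled *Card9* KO, with *Thy1*, *Postn* and *Cthrc1* called higher, *Gsn* called lower and none of the 14 at 0. *Postn* alone made up most of the difference between these sums. Its FPKM was 183.74 and 240.89 in WT MI hearts and 625.98 and 627.0 in the MI libraries labelled *Card9* KO. *Postn* and *Cthrc1* are secreted by activated fibroblasts and *Gsn* is high in resting ones. Of the 14, 11 had a log2 fold change above 0, with a median of 0.44, and 6 were higher and 2 lower at an unadjusted p below 0.05. The 10 that were not called lay between −0.52 for *Pdgfra*, a receptor of cardiac fibroblasts, and 0.82 for *Meox1*, a transcription factor of activated ones. Among them *Tcf21* had 0.62, *Fap* 0.35 and *Dpt* 0.18. A shift between resting and activated fibroblasts was not tested. Smooth muscle and pericyte markers summed to 337 to 353 and 573 to 587, with *Acta2* and *Tagln*, which myofibroblasts also express, called higher of 10 (6 higher and 1 lower at an unadjusted p below 0.05, median 0.49). Macrophage markers summed to 1443 to 1847 and 2149 to 2954 (1 of 12 called higher), with all 12 log2 fold changes above 0, a median of 0.73 and 7 higher at an unadjusted p below 0.05. Neutrophil markers summed to 93.2 to 212 in WT MI hearts and 46.7 to 59.8 in the MI libraries labelled *Card9* KO, in the direction of *Mmp9*, which neutrophils also express. All 6 tested had a log2 fold change below 0, with −1.73 for each of *S100a8* and *S100a9* (adjusted p = 0.094), none was called by limma, and 2 were lower at an unadjusted p below 0.05. Cardiomyocyte markers summed to 38528 to 40165 and 32223 to 37260 (0 of 12 called by limma, with 4 lower at an unadjusted p below 0.05). Epicardial markers summed to 50.8 to 64.6 and 40.4 to 43.9, Schwann cell markers to 50.1 to 55.1 and 48.7 to 54.0 and adipocyte markers to 3.36 to 16.0 and 0.99 to 10.3, with 0 called by limma and, at an unadjusted p below 0.05, 2 epicardial markers lower. The summed fibrillar FPKM per summed fibroblast marker FPKM was 0.174 and 0.165 in WT Sham hearts, 1.05 and 1.21 in WT MI hearts and 1.57 and 1.44 in the MI libraries labelled *Card9* KO. This list holds *Cthrc1* and *Postn*, and the latter weighs heavily in the marker sum of the infarct groups. Per summed FPKM of *Pdgfra*, *Tcf21*, *Thy1*, *Ddr2*, *Meox1* and *Fap* alone, a choice made after the values were seen, it was 3.13 and 3.65, 12.4 and 15.5, and 16.0 and 16.1, with one WT MI library close to both of the last group. The sum of these 6 genes was 86.4 and 93.4 in WT MI hearts and 152 and 141 in the MI libraries labelled *Card9* KO. *Thy1* and *Meox1* weighed heavily in that difference, whereas *Pdgfra* was lower in the last group. The part of these cell types in the collagen values was not tested.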

How the data were processed

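RNA was extracted from 6 mouse heart samples, mRNA was enriched, and libraries were sequenced on an Illumina HiSeq instrument. Filtered reads were mapped to mm9 (BWA, Bowtie2), and for each library the authors deposited FPKM values by NCBI gene number, rounded to 2 decimals and without genes at 0, which were filled in as 0 here. The gene annotation, the use of strand and the tool versions are not given in the sources used here. FPKM is relative to the library, so a change of abundant genes shifts all others. Symbols and promoter windows were taken from RefSeq (GRCm38.p6), and positions from the GENCODE annotation of mm9.

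The depth of each library was inferred from how its low FPKM values are spaced. Only 76.0% to 78.6% of the low values lay within 0.15 of a whole fragment, so counts were not rebuilt and no count test was run. Fragment numbers are estimates and cover counting error only.

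log2(FPKM + 1) was fitted with limma 3.58.1 in R 4.3.3 (lmFit, eBayes with trend) on the 13120 genes that reached an FPKM of 1 in 2 or more libraries, with the 3 groups in one fit and Benjamini-Hochberg adjustment. The fit was tested on simulated data. Sums, ratios and figures were made in Python 3.11.15 with pandas 2.3.3, numpy 2.4.6 and matplotlib 3.10.9. Alternatives were pseudocounts of 0.1 and 5, dropping the filter or filtering at a mean FPKM of 5, 3 other scalings, a fit of only the groups compared, no trend, the replicate block, a 2-fold minimum, the study's screen, and leaving out each library. Values are printed for *Card9*, for the highest genes of each class, for those called between both infarct groups or moving against their class, for up to 6 genes below the filter, and for up to 4 called genes of each other list. *Mmp14*, *Pdgfra*, *Meox1*, *Tcf21*, *Fap*, *Dpt*, *S100a8*, *S100a9* and the cartilage markers other than *Sox9* were added after their values were seen. The genes, classes and lists were chosen with earlier results of these data known.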

Additional observations from a re-analysis of the deposited data

How the results depend on the processing

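The alternatives were fixed at the start, except that the genes of collagen maturation, crosslinking, receptors and breakdown were counted under them after the data were seen. With 2 libraries per group, 3 residual degrees of freedom and an estimated 3007067 to 4286477 fragments per library, values below an FPKM of 1 rest on few fragments, and calls at other depths were not tested. Where a value below moved, the cause was not tested unless the setting itself gives it. For the 23 collagen chain genes tested and *Card9*, 981 values under alternatives kept their direction and side of the threshold. A further 111 fell short of it, 15 newly passed it and 6 turned direction, none of the last called. Of those that fell short, 101 were in *Card9* KO MI against WT MI, where 259 were kept and 11 newly passed. Kept values include those of genes not called in the main fit. Other genes named were not part of this tally. Log2 fold changes turned for *Col11a1* (−0.18) and *Col8a2* (−0.23) in WT MI against WT Sham under quantile normalization, and for *Col4a3* in *Card9* KO MI against WT Sham to −0.08 with upper-quartile scaling, −0.42 with quantile normalization, −0.02 with scaling without the 100 most abundant genes and −0.06 without WT Sham replicate 2 (−0.06 to 0.14 over the left-out libraries). For WT MI against WT Sham, the screen called 12 collagen chain genes higher; 2 were lower with no filter or quantile normalization, and 0 with a mean FPKM of at least 5, a 2-fold minimum or the screen. Of the collagen-processing genes, 2 were lower with upper-quartile scaling and 0 without trend. The collagen median was 1.63 and 0.88 with pseudocounts of 0.1 and 5, 0.20 with no filter, 1.70 with the mean filter, and 1.01, 0.98 and 1.23 with upper-quartile, quantile and top-100 scaling. For *Card9* KO MI against WT MI, 5 collagen chain genes were called higher with a pseudocount of 0.1 or only the groups compared, 17 were with a pseudocount of 5, 0 with no filter, 3 without trend, and 4 with the 2-fold minimum or the screen. Processing genes called higher were 0 with a pseudocount of 0.1, no filter, only the groups compared, no trend or the replicate block, 6 with a pseudocount of 5 or the mean filter, and 5 with quantile normalization; called lower were 0 with the first 5 of these. The collagen median was 0.79 and 0.64 with pseudocounts of 0.1 and 5, 0.45 with no filter, and 0.64 and 0.74 with upper-quartile and quantile scaling. For *Card9* KO MI against WT Sham, 1 collagen chain gene was lower with upper-quartile scaling, quantile normalization or no trend. Processing genes called lower were 4 under each of the 3 scalings, and 1 with no filter, only the groups compared or no trend. The collagen median was 2.89 and 1.53 with pseudocounts of 0.1 and 5, 0.84 with no filter, 2.50 with the mean filter, and 1.54, 1.69 and 1.65 under the scalings. The ratio of summed collagen FPKM was 3.27 for WT MI to WT Sham and 5.55 for *Card9* KO MI to WT Sham with upper-quartile scaling, and 6.09 for the latter with top-100 scaling.

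With each library left out in turn, WT MI against WT Sham gave 18 to 19 collagen chain genes higher, 0 to 1 lower, and medians of 1.09 to 1.52. *Card9* KO MI against WT MI gave 0 to 9 higher, 0 lower, and medians of 0.63 to 0.79. *Card9* KO MI against WT Sham gave 19 to 21 higher, 0 lower, and medians of 1.81 to 2.36. Processing genes called higher were 31 to 35, 0 to 1 and 34 to 40, and lower 0 to 1, 0 to 1 and 1 to 2, in the same order. Differences between replicates of a group correlated between groups with r from −0.00828 to 0.0204 over 13120 genes, so the numbers do not pair the libraries; with the replicate block, 5 collagen chain genes were called higher in *Card9* KO MI against WT MI, and the collagen counts of the other comparisons stayed at 19 and 21.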
